A study of Homo sapiens with 4 samples.

Results

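Expression of 35 genes of cholesterol and lipid synthesis, led by *TMEM97*, was compared between FLO-1LM and FLO-1 parental cells in 4 RNAseq libraries, 2 per line. FLO-1 cells come from a human esophageal adenocarcinoma and are an established line. FLO-1LM is the subline grown out of a liver deposit of FLO-1 after serial passage in NSG mice, which lack T, B and natural killer cells. It therefore differs from the parental line in its history as a whole (mouse passage, liver site, renewed culture), and these cannot be told apart here. Both lines were harvested as untreated cultures, in medium with fetal bovine serum, at 80% confluency, 24 hours after the medium was replaced, and no source says whether each library had a culture of its own, so that p-values measure only the spread between these libraries, which may be technical. The genes were chosen by symbol and role: *TMEM97*, 7 enzymes that carry acetyl units to isoprenoids, 9 enzymes of the later sterol steps, 5 genes of the SREBP system, 3 of sterol uptake and transport, 4 of the LXR system and efflux, and 6 of fatty acid synthesis. Of the 63677 genes in the count files, 34 matched the list, and *ACACA* was not analysed here because its identifier could not be paired with one in the files. *TMEM97* heads the list because the study names it as higher in FLO-1LM in these same libraries, so that its values are given as a description with no test. All 34 genes passed the filter on low counts that left 17143 genes for testing.

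Cholesterol is built from acetyl-CoA through the mevalonate pathway to isoprenoids, then cyclized to lanosterol and trimmed to the finished sterol. When sterol in the endoplasmic reticulum runs low, SCAP escorts the SREBP transcription factors to the Golgi for cleavage, and the released factor switches on the genes of synthesis and uptake. INSIG proteins hold SCAP back when sterol is plentiful, while oxysterols activate the LXR receptors, which drive the export pumps. TMEM97, also known as the sigma-2 receptor, is a membrane protein of the endoplasmic reticulum and lysosome that binds the cholesterol carrier NPC1, and its gene is itself an SREBP target.

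Total counts ran from 19060310 to 25920336 per library. Levels are given as CPM, that is, read counts set to a common library size with TMM scaling factors. In the edgeR quasi-likelihood test with Benjamini-Hochberg adjustment over all genes, 69 genes (0.402%) were higher in FLO-1LM and 313 (1.83%) lower at adjusted p under 0.05. These counts changed with the libraries used. In both directions they fell when either parental library was left out and rose when either FLO-1LM library was left out. Such fits take the spread within a line from the other line alone, and the cause of the change was not tested. The summed level of the 8 epithelial markers was 489 to 505 CPM in FLO-1LM and 864 to 874 in parental libraries, with *KRT8* and *KRT18* between 4068 and 9568 reads and *EPCAM* and *ESRP1* at 12 reads or fewer in all libraries. Of 12 hepatocyte markers, 9, *ALB* among them, were at 0 in all libraries, and the list summed to between 15.6 and 19.4 CPM, mostly *SERPINA1*. The 7 fibroblast markers summed to between 11.0 and 14.4 CPM, with *COL3A1* and *DCN* at 0, and the 6 blood and endothelial markers found summed to at most 0.673 CPM, with *PTPRC* at 0. Mitochondrial genes took 9.57% to 9.96% of the reads in FLO-1LM and 7.93% to 8.31% in parental cells. With the mitochondrial genes left out before scaling, the log2 fold change of *TMEM97* was 0.4366, beside 0.4379 with them, and 0 of the other listed genes passed the threshold in edgeR, as with them. The part of the epithelial difference in any result here was not tested.

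*TMEM97* (ENSG00000109084, GRCh37 chr17:26646226-26655711, plus strand) had 1243 and 1524 reads in the FLO-1LM libraries and 966 and 787 in the parental libraries. Scaled, these were 55.8 and 59.2 CPM against 43.8 and 41.0, or 57.5 ± 2.41 and 42.4 ± 1.96 (SD, n = 2 per line). Both FLO-1LM libraries were above both parental ones, with a log2 fold change of 0.44 (SE 0.096), a ratio of 1.35. This was the highest fold change of the 34 genes in the fit as described and in all 13 alternatives, where it ran from 0.39 to 0.49. The alternatives reuse the libraries in which the study named *TMEM97* as higher, so the rank is a description only. The neighboring gene *IFT20*, which encodes a protein of ciliary transport, lies on the opposite strand and shares 361 of the 2929 exon bases of *TMEM97*. It had 633 and 646 reads in FLO-1LM and 504 and 456 in parental libraries, a log2 fold change of 0.20 (SE 0.12, adjusted p = 0.585, edgeR). *IFT20* was singled out after its values were seen. The strand setting of the authors' counting is not stated, so reads from the shared bases may not be told apart.

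The promoter of *TMEM97* is shown because SREBP is known to act on the promoters of sterol genes together with a partner, NF-Y. The sequence is the 250 bases before the RefSeq gene start, on build GRCh38.p14 (chr17:28318950-28319199, plus strand), a different build from the GRCh37 of the counts, and capitals mark the NF-Y box CCAAT. For comparison, the same stretch is given for *HMGCS1* (chr5:43313413-43313662, minus strand), where capitals mark the box read on the opposite strand, ATTGG.
TMEM97: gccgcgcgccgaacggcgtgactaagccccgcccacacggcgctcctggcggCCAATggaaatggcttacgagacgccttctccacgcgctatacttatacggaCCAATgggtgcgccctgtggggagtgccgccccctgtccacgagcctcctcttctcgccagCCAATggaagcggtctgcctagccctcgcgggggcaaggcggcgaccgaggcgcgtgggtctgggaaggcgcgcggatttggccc
HMGCS1: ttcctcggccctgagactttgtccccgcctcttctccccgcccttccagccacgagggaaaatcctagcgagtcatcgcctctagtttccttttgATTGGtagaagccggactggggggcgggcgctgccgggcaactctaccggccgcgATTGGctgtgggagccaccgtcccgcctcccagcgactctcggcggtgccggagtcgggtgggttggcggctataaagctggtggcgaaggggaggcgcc
*TMEM97* held 3 boxes, at 198, 146 and 85 bases before the start, all on its own strand, and *HMGCS1* held 2, at 155 and 100 bases, both on the opposite strand. Of the 31 listed genes with a promoter in the table, 17 (54.8%) held at least 1 box, against 33% of all 27305 promoters of the same length. Of 53 promoters of further genes of the same pathways, 26 (49.1%) held at least 1. At least 2 boxes were found in 11 of the 31 (35.5%) and in 10% of all promoters. At least 3 boxes were found in 7 of the 31 (22.6%), namely *TMEM97*, *MVK*, *MVD*, *FDPS*, *MSMO1*, *NSDHL* and *EBP*, and in 3.09% of all promoters. The cutoff of 3 equals the number held by *TMEM97*, so that its place in this group follows from the cutoff. The fold changes of the other 6 genes of this group ran from -0.06 to 0.13. A match is a description of letters and not a shown binding site.

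**Figure D1:**
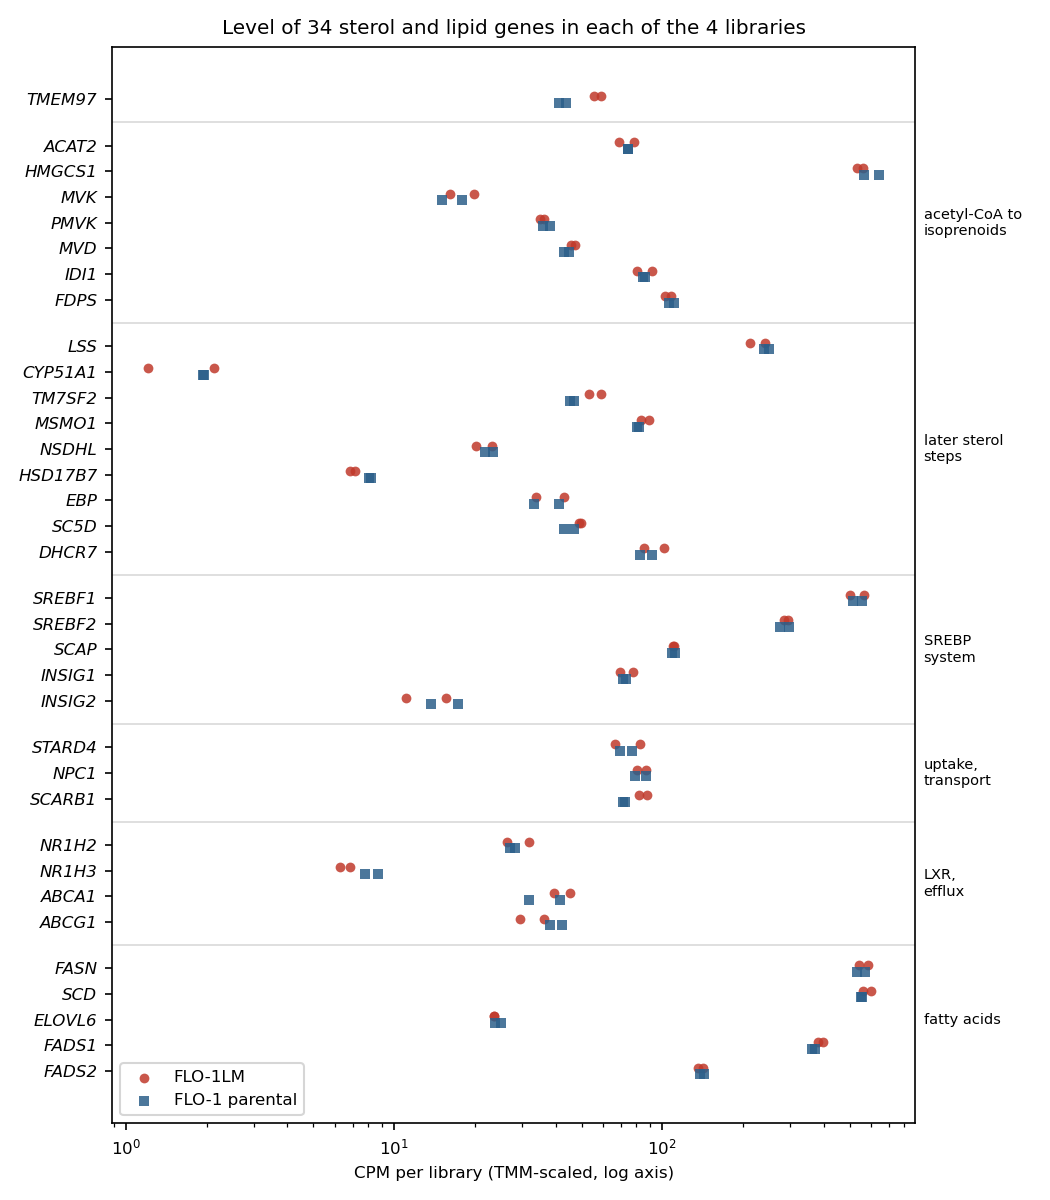
Level of each of the 34 genes in CPM (log axis) in the 2 FLO-1LM libraries (circles) and the 2 parental libraries (squares), ordered by role. The libraries of *TMEM97* separate by line, at 55.8 and 59.2 against 43.8 and 41.0 CPM. Those of 7 other genes separate upwards in FLO-1LM and those of 5 downwards, and the symbols of 21 genes overlap. Of all tested genes, 20.9% separate upwards and 21.7% downwards.

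With all 4 libraries, none of the other 33 genes passed adjusted p under 0.05 in edgeR, DESeq2 or limma voom. Of all tested genes, 2.23% did so in edgeR. At an unadjusted p under 0.05, 2 of the 33 were higher in FLO-1LM, *TM7SF2* and *SCARB1*, and 1 was lower, *ABCG1*, beside 5.28% and 7.08% of all genes. The estimates were nearly balanced, with 18 above and 15 below 0, a median log2 fold change of 0.02 (0.0016 over all genes) and a range from -0.33 to 0.28. Within 0.25 of 0 lay 30 of the 33 (90.9%), beside 70.6% of all tested genes and 94.4% of those with a mean above 1000 reads. The 95% interval of the fold change lay within 0.5 of 0 for 28 of the 33, including all 21 genes with a mean above 1000 reads. The lines did not overlap in CPM for 7 genes that were higher in FLO-1LM and 5 that were lower, beside 20.9% and 21.7% of all genes. Together the 33 genes summed to 4645 and 4479 CPM in FLO-1LM and 4532 and 4553 CPM in parental libraries, so that the parental sums lay between those of FLO-1LM. Since the genes were chosen with results of these data known, these counts stand as a description. In fits with 1 library left out, *TM7SF2*, *SCARB1* and *ABCG1* passed the threshold, and such fits leave a single library in 1 line.

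**Figure D2:**
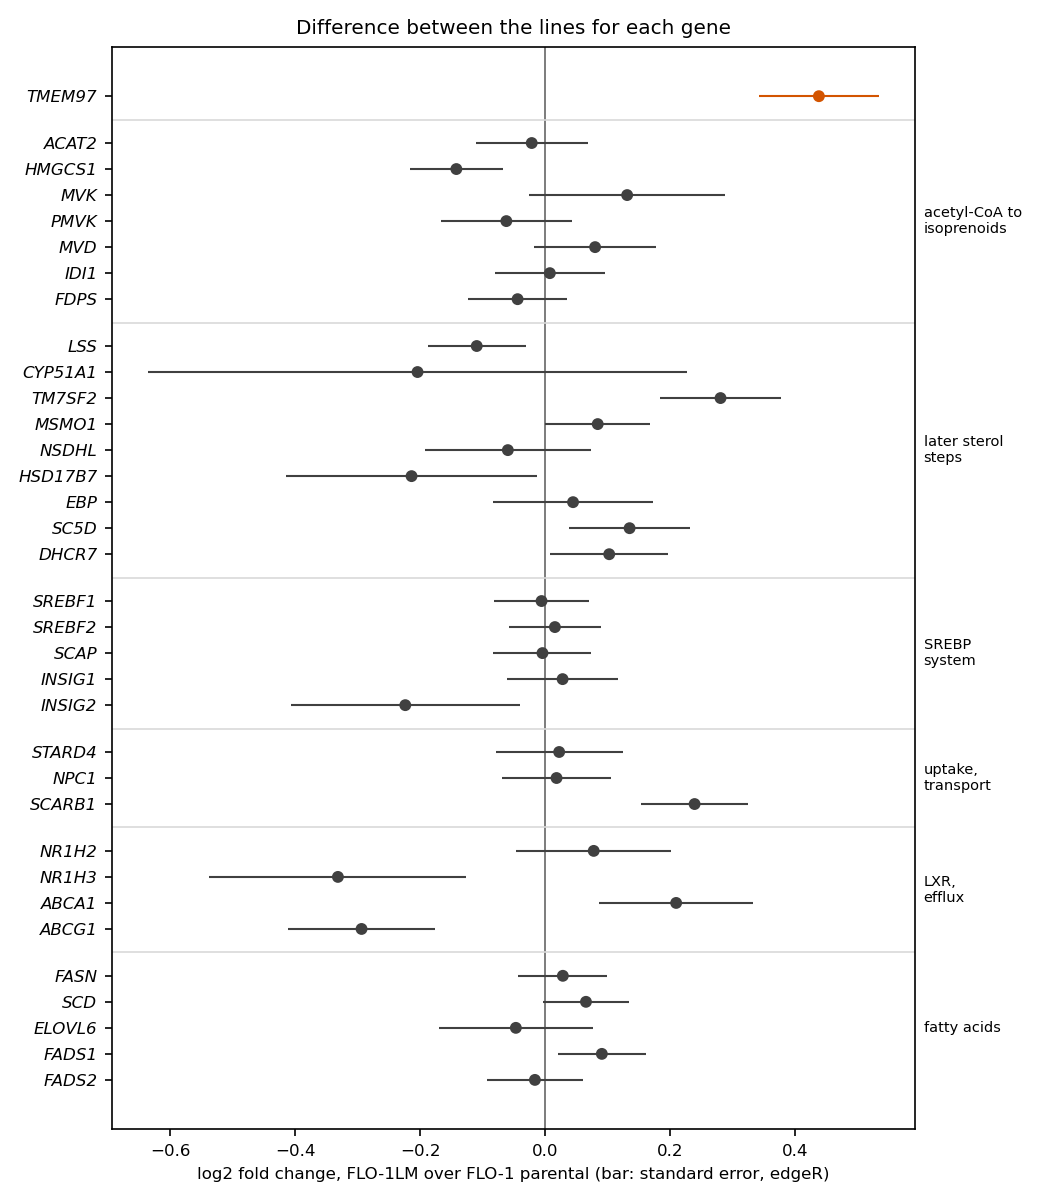
Log2 fold change of FLO-1LM over FLO-1 parental for each of the 34 genes (points) with its standard error from edgeR (bars), grouped by role. *TMEM97*, in orange, lies at 0.44, and the other 33 genes lie between -0.33 and 0.28 on both sides of 0.

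The 7 enzymes that lead from acetyl units to isoprenoids had a median log2 fold change of -0.02, with 3 estimates above and 4 below 0 and adjusted p-values of 0.465 or more. *HMGCS1*, which makes HMG-CoA, had 562 and 535 CPM in FLO-1LM and 643 and 567 in parental libraries. It was the only one of the 7 whose libraries lay apart downwards, at -0.14 (SE 0.075, adjusted p = 0.465, edgeR). *ACAT2*, the cytosolic thiolase of the first step, had 78.2 and 68.8 CPM against 74.7 and 74.5, with the parental libraries between those of FLO-1LM. *MVK*, *PMVK* and *MVD*, the kinases and decarboxylase that turn mevalonate into isopentenyl pyrophosphate, gave 0.13, -0.06 and 0.08. *MVD* lay apart upwards, at 47.2 and 45.8 CPM against 43.0 and 45.1, a separation smaller than the spread within the parental line. *IDI1*, the isomerase that follows, was at 0.007, and *FDPS*, which joins the isoprene units to farnesyl pyrophosphate, had 103 and 108 CPM against 106 and 110, at -0.04 (SE 0.080).

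Among the 9 enzymes of cyclization and the later sterol steps, the median was 0.04, with 5 estimates above and 4 below 0. *LSS*, which closes the sterol rings, had 213 and 242 CPM in FLO-1LM and 240 and 251 in parental libraries, at -0.11 (SE 0.078). *TM7SF2*, a sterol C14 reductase, had 58.9 and 53.4 CPM against 45.5 and 46.9, so that both FLO-1LM libraries lay above the parental ones. Its log2 fold change of 0.28 (SE 0.096) was the highest after *TMEM97* but missed the threshold, with an adjusted p of 0.186 in edgeR. With each library left out in turn it ran from 0.21 to 0.35. *TM7SF2* shares 18 exon bases with *VPS51* on the same strand, which was at 0.02 (adjusted p = 0.957, edgeR). *MSMO1* and *SC5D*, a methylsterol oxidase and a desaturase, also lay apart upwards at 0.08 and 0.13, with adjusted p-values of 0.778 and 0.648 in edgeR. *HSD17B7*, a ketoreductase of the C4 demethylation, lay apart downwards with 6.87 and 7.15 CPM against 8.07 and 8.19, at -0.21 (SE 0.20, adjusted p = 0.759, edgeR). *NSDHL*, the decarboxylating dehydrogenase of the C4 demethylation, *EBP*, which shifts a double bond, and *DHCR7*, a sterol reductase, overlapped between the lines at -0.06, 0.04 and 0.10.

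*CYP51A1*, the lanosterol demethylase, had the fewest reads counted of the list, with 27 and 55 in FLO-1LM and 43 and 37 in parental libraries. Its fold change of -0.20 had an SE of 0.43, the widest of the list. The 95% interval ran from -1.11 to 0.70, so that little can be said of it from so few reads. The pseudogenes *CYP51A1P2*, with 114, 190, 121 and 125 reads in the same order, and *CYP51A1P1*, with 104, 160, 95 and 72, each exceeded the gene they derive from. When the reads of a gene and its pseudogenes were summed, the *CYP51A1* family turned from below to above 0, at 0.18. How reads that match both were counted is not stated. For the abundant genes the pseudogenes weighed less, with 563, 797, 513 and 505 reads for *SCDP1* beside 10594 to 15427 for *SCD*, and with 256, 241, 227 and 211 for *FDPSP1* beside 2117 to 2772 for *FDPS*.

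**Figure D3:**
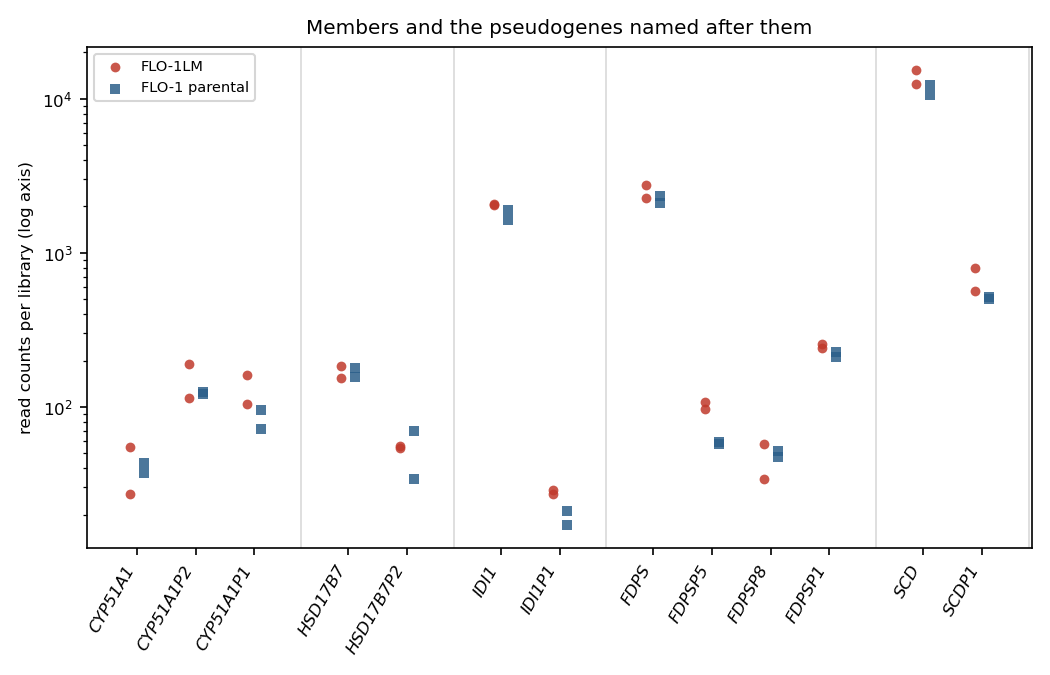
Read counts per library (log axis) of 5 genes and of the pseudogenes named after them with a mean of at least 10 reads, in FLO-1LM (circles) and parental (squares) libraries. For *CYP51A1* both pseudogenes lie above the gene, whereas for *HSD17B7*, *IDI1*, *FDPS* and *SCD* the gene lies above its pseudogenes.

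The 5 genes of the SREBP system overlapped between the lines in CPM, with a median of -0.004. Of all tested genes, 20.9% lay apart upwards and 21.7% downwards. *SREBF1*, which encodes the SREBP form that favors fatty acid genes, had 563 and 502 CPM in FLO-1LM and 513 and 557 in parental libraries. *SREBF2*, which encodes the form that favors sterol genes, had 294 and 285 CPM against 275 and 298, at 0.02 (SE 0.073). The FLO-1LM values of both genes fell in the midst of, or around, the parental ones. *SCAP*, the escort, had 109 and 111 CPM against 109 and 112, at -0.004 (SE 0.078). *INSIG1*, the retention factor that is itself switched on by SREBP, had 78.0 and 69.4 CPM against 71.5 and 73.0, at 0.03 with a 95% interval from -0.16 to 0.22. *INSIG2*, its less abundant relative, had 15.7 and 11.1 CPM against 17.4 and 13.7, at -0.22 (SE 0.18, adjusted p = 0.705, edgeR). mRNA levels do not report SREBP cleavage, which was not measured in these libraries.

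The *SREBF2* promoter is shown because it was the only one of the 31 promoters with the core of the sterol regulatory element, TCACNCCAC searched on both strands, which 0.875% of all promoters held. Capitals mark that core, 133 bases before the start on the gene's strand, and an NF-Y box on the opposite strand 106 bases before it (GRCh38.p14, chr22:41832855-41833104, plus strand).
SREBF2: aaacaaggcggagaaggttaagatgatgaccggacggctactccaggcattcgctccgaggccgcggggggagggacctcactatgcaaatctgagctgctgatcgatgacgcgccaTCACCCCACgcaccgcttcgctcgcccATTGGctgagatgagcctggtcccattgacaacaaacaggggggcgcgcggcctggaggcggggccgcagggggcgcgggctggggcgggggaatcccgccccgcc
The other 30 promoters lacked these letters within this window only, and other forms of the element were not searched.

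Of the 3 genes of uptake and transport, *NPC1*, the lysosomal carrier that TMEM97 binds, overlapped between the lines. It had 80.8 and 86.9 CPM in FLO-1LM and 86.6 and 79.0 in parental libraries, at 0.02 (SE 0.087) with a 95% interval from -0.16 to 0.20. *STARD4*, a soluble sterol carrier, had 82.3 and 66.5 CPM against 76.8 and 69.5. *SCARB1*, the receptor for HDL cholesterol esters, had 87.7 and 82.0 CPM against 72.6 and 71.1, with both FLO-1LM libraries above both parental ones. Its log2 fold change of 0.24 (SE 0.085) had an adjusted p of 0.208 in edgeR. With each library left out in turn it ran from 0.19 to 0.29.

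The 4 genes of the LXR system and efflux gave estimates of both signs, with a median of -0.11. *NR1H3*, which encodes LXR-alpha, had 6.82 and 6.29 CPM in FLO-1LM and 8.71 and 7.77 in parental libraries, the lowest fold change of the list at -0.33 (SE 0.21, adjusted p = 0.573, edgeR). *NR1H2*, which encodes LXR-beta, overlapped at 31.9 and 26.5 CPM against 26.99 and 28.3. Both receptors share exon bases with genes of the opposite strand, *NR1H3* with *ACP2*, whose reads outnumbered it in each library, and *NR1H2* with *NAPSA*, at 17 reads or fewer. The efflux pumps *ABCA1* and *ABCG1*, both LXR targets, differed in the sign of their estimates. *ABCG1* had 36.2 and 29.4 CPM against 38.2 and 42.2, at -0.29 (SE 0.12, adjusted p = 0.291, edgeR), whereas *ABCA1* had 45.3 and 39.5 against 41.4 and 31.8, at 0.21 (SE 0.12, adjusted p = 0.542, edgeR). With each library left out in turn, the fold change of *ABCG1* ran from -0.45 to -0.15 and that of *ABCA1* from 0.03 to 0.42.

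The fatty acid genes had the highest summed CPM of the groups, a sum that is not corrected for gene length. All 5 genes measured had log2 fold changes between -0.05 and 0.09. *FASN*, the fatty acid synthase, had 584 and 541 CPM in FLO-1LM and 535 and 568 in parental libraries, at 0.03 (SE 0.071). *SCD*, the stearoyl-CoA desaturase, had 560 and 599 CPM against 555 and 553, at 0.07 (SE 0.069, adjusted p = 0.796, edgeR). *FADS1* and *FADS2*, the desaturases of polyunsaturated fatty acids, were at 0.09 and -0.02, and share 490 exon bases on opposite strands. *ELOVL6*, an elongase, had 23.5 and 23.6 CPM against 24.95 and 23.7, at -0.05. The group's median was 0.03, and its summed level was 1689 and 1699 CPM against 1628 and 1645.

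Levels between genes were compared as CPM per kilobase of annotated exon, averaged over the 4 libraries. *SCD* stood first at 108, followed by *HMGCS1* at 87.0, *SREBF1* at 64.8, *FASN* at 59.8 and *FADS1* at 36.9. *TMEM97* was at 19.6 in FLO-1LM and 14.5 in parental cells and stood at rank 16 of the 34, between *SCAP* at 17.5 and *TM7SF2* at 15.0. *TMEM97* lay above *SCAP* in FLO-1LM, at 19.0 and 20.2 against 17.4 and 17.6, and under it in parental libraries, at 14.96 and 14.01 against 17.3 and 17.8. It lay above *TM7SF2*, at 17.3 and 15.7 in FLO-1LM and 13.3 and 13.8 in parental libraries, in each of the 4. The bottom of the order was held by *MVK* at 1.91, *NR1H3* at 1.63, *HSD17B7* at 1.58 and *CYP51A1* at 0.433. The values of *NR1H3* and *HSD17B7* overlapped over the 4 libraries. *CYP51A1* is placed by the reads counted for it alone, and how reads matching its pseudogenes were counted is not stated. With the longest transcript as the length, *SREBF1* came first at 109 with *SCD* at 108 and *HMGCS1* at 108, and *TMEM97* was at rank 19, so that the order among neighbors depends on the length taken.

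A further 70 genes of the same pathways, all found in the files, were set beside the list, and 66 of them passed the filter. After the filter and with all 4 libraries, none passed adjusted p under 0.05 in edgeR with TMM scaling or in DESeq2. Limma voom without scaling factors called *LIPA* alone, and edgeR without the filter called *FAXDC2* and *LIPA*, both lower. At an unadjusted p under 0.05 in edgeR, 6 were higher in FLO-1LM and 2 lower, beside 5.28% and 7.08% of all genes, with 33 estimates on each side of 0 and a median of -0.001. *LIPA*, the lysosomal acid lipase that frees cholesterol from its esters, had the smallest adjusted p. It had 407 and 373 CPM in FLO-1LM and 489 and 440 in parental libraries, at -0.25 (SE 0.076, adjusted p = 0.110, edgeR). With each library left out in turn, its log2 fold change ran from -0.33 to -0.18. *LIPA* shares 65 exon bases with *IFIT2* and 94 with *IFIT3*, both on the opposite strand. *IFIT2* had 7063 and 7191 reads in FLO-1LM and 9404 and 7839 in parental libraries. For *IFIT3* these were 6196 and 6504 against 7749 and 6320. Reads from the shared bases may not be told apart. *GRAMD1A*, which moves sterol from the plasma membrane, was at -0.005, with an adjusted p of 0.991 in edgeR. *FDFT1*, which makes squalene, was at 0.04, and *ACAT1*, the mitochondrial thiolase, at -0.05.

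Of the SREBP processing genes, *MBTPS1*, the protease of the first cleavage, was at 0.03, and *ERLIN1*, an endoplasmic reticulum scaffold protein, at 0.06. Of the fatty acid genes, *ACLY*, which supplies cytosolic acetyl-CoA, was at 0.14 (SE 0.072, adjusted p = 0.443, edgeR), with 394 and 426 CPM in FLO-1LM above 363 and 379 in parental libraries. *HACD3*, a dehydratase of chain elongation, also lay apart upwards at 0.18 (adjusted p = 0.359, edgeR), and *ACSL3*, which activates fatty acids, was at 0.004. Leaving out 1 library brought 3 further genes past the threshold, *MBTPS2* without FLO-1LM replicate 1, and *FNTA* and *PGRMC1* without FLO-1LM replicate 2. Of the 4 genes that did not pass the filter, *ME1* was listed at 0 in all libraries, *IDI2* had 6 reads or fewer, and *FAXDC2*, of the sterol desaturase family, had 0 reads in both FLO-1LM libraries and 21 and 8 in the parental ones. With the 0 reads of FLO-1LM replaced by an assumed floor of 3 over the line, the fold for *FAXDC2* came to 11.3, lower in FLO-1LM. This value depends on the floor and is not a measured fold difference. The floor covers counting error in FLO-1LM only, and the error of the parental reads was not included. *MBTPS2*, *FNTA*, *PGRMC1*, *ME1*, *IDI2* and *FAXDC2* were named after their values were seen.

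**Figure D4:**
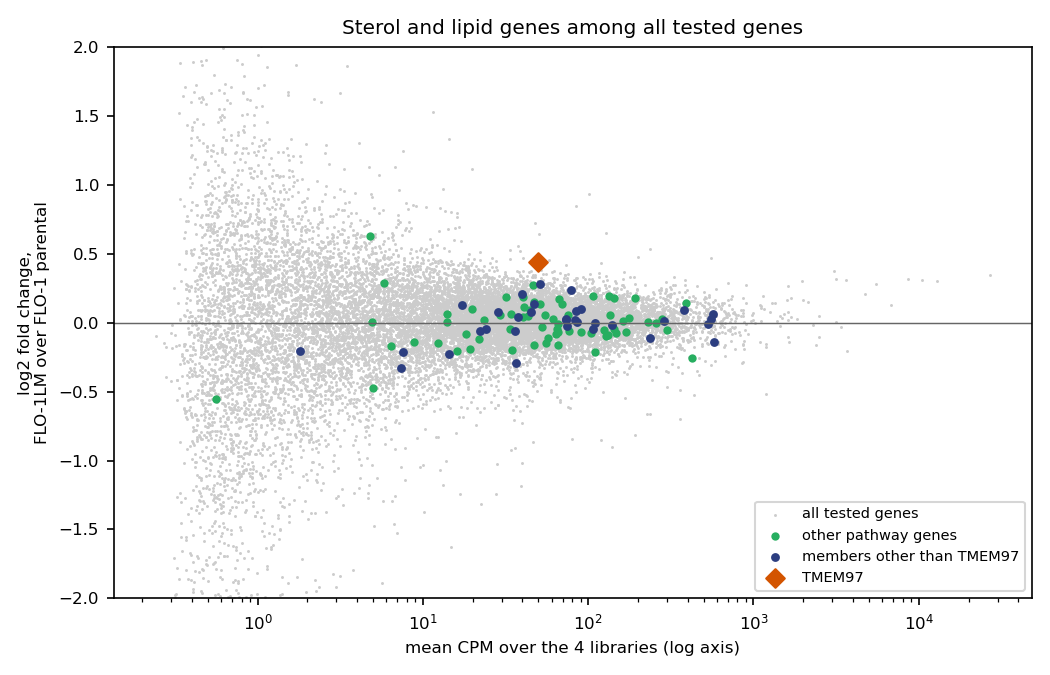
Log2 fold change of FLO-1LM over FLO-1 parental against mean CPM (log axis) for all tested genes (gray), the 66 tested genes of the further pathway lists (green), the 33 listed genes other than *TMEM97* (blue) and *TMEM97* (orange). The axis stops at 2 either side, which leaves out 359 gray genes, and most pathway genes lie near 0, with *TMEM97* at 0.44.

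Opposite the exons of the listed genes lay 15 tested genes outside the list, of which 5 had estimates above 0 and 10 below. At adjusted p under 0.05 in edgeR, 0 were higher and 1 was lower, beside 0.402% and 1.83% of all genes. At an unadjusted p under 0.05, 1 was higher and 4 were lower, beside 5.28% and 7.08% of all genes. Those described here were named after their values were seen. The gene ENSG00000261604, which shares 2497 exon bases with *HMGCS1*, had 13 and 6 reads in FLO-1LM and 95 and 92 in parental libraries, at -3.49 (SE 0.45, adjusted p = 0.000143, edgeR). *HMGCS1* itself had 12528 and 13765 reads against 14175 and 10879. The gene opposite *SREBF2*, *SREBF2-AS1*, had 12 and 7 reads against 33 and 32, at -1.97 (SE 0.62, adjusted p = 0.138, edgeR), beside 5716 to 7346 reads for *SREBF2*. The other 2 lower genes at unadjusted p were *IDI2-AS1* opposite *IDI1*, at -1.69, and *RUSC1-AS1* opposite *FDPS*, at -0.63. The higher one, ENSG00000228404 opposite *LSS*, had 12 and 15 reads against 4 and 1, at 2.17 (SE 0.94, adjusted p = 0.342, edgeR). These partners held few reads beside the genes they face, and whether those reads came from the partner's own strand was not tested. The shares above are over all tested genes and not over genes of like depth. Tested genes with a mean under 100 reads had a median log2 fold change of -0.078, beside 0.0016 over all tested genes. Reads were found for 21152 and 21304 genes in the FLO-1LM libraries and for 23104 and 22908 in the parental ones.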

How the data were processed

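RNAseq was analysed in 4 libraries (2 per line, taken from the sample labels, replicate numbers in accession order). The authors sequenced directional libraries on an Illumina machine and deposited raw read counts per Ensembl gene, without normalization. Per the submitters' processing notes, bcl2fastq 2.17, Trimmomatic 0.30 and GRCh37 were used, while the counter and how it treated strand are not given in the sources used here. From the counts, genes were kept with filterByExpr (minimum count 10, minimum total 15), scaled by TMM and tested with edgeR 4.0.16 (glmQLFit, glmQLFTest, R 4.3.3), with Benjamini-Hochberg adjustment over all 17143 genes. The standard error was taken from the fold change and F (log2 fold change over root F), and 95% intervals used the test's degrees of freedom. The scripts were tested on simulated data. DESeq2 1.42.0, limma 3.58.1, other scalings and filters and each library left out in turn were alternatives. Depth was 19060310 to 25920336 reads, and no libraries of a line agreed within sampling noise (chi-square per degree of freedom 9.72 and 4.59). With 2 libraries per line, the smallest two-sided p that exact permutation allows for 1 gene is 0.333. Named genes were all members and, of the further lists, genes past the threshold and the 3 most abundant of each list, some of which are not reported here. The members and lists were chosen with earlier results of these data known. Promoters came from RefSeq (GRCh38.p14), for 31 of 35 genes.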

Additional observations from a re-analysis of the deposited data

How the results depend on the processing

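Over the 13 alternatives, 16 of the 33 genes other than *TMEM97* kept the sign of their fold change throughout, and 17 turned in at least 1. No paired analysis was possible because the labels give no replicate numbers that the lines share. With library totals only, the median of the later sterol enzymes was 0.0133 and that of the fatty acid genes -0.0028. With limma voom without scaling factors they were 0.0104 and -0.0031, and 1 further pathway gene, *LIPA*, was lower at an adjusted p of 0.0389. These settings moved the median of all genes by -0.031 and -0.035, and the cause was not tested further. Without a low-count filter, 147 genes over the whole table were higher and 2 further pathway genes lower, *FAXDC2*, which the filter removes, and *LIPA*. With at least 10 reads required in every library, 203 genes were lower, with fewer genes tested. With pseudogene reads added, an alternative chosen after seeing the data, the median of the later sterol enzymes was 0.084. Leaving out each library in turn gave 14 to 364 higher and 83 to 736 lower genes over the whole table, 0 to 2 higher and 0 to 1 lower members, and 0 to 2 higher and 0 to 1 lower further pathway genes. The group medians then ran from -0.0878 to 0.0683 for isoprenoid enzymes, -0.1031 to 0.1338 for later sterol enzymes, -0.0476 to 0.1691 for uptake, -0.2266 to 0.0303 for the LXR group and -0.0266 to 0.06 for fatty acid genes. With 1 library left in a line, that library is assumed to vary like those of the other line. At this depth the median standard error was 0.094 over the 33 genes.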
